A study of Mus musculus with 12 samples.

Results

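Genes of the coat and cargo machinery that carries proteins between the endoplasmic reticulum (ER) and the Golgi were followed through the activation of mouse B cells and their differentiation into plasmablasts. The set was given as 52 gene names, and each was looked up by its mouse Entrez gene, which gave 51 genes of the 27179 in the deposited table, because Sec12 is another name of Preb. Of these, 15 encode the COPII coat and its ER exit sites, 12 the COPI coat and the Arf GTPase cycle, 13 cargo receptors and retrieval receptors, 10 tethers, SNAREs and Rab GTPases, and 1, Hid1, a protein of the trans-Golgi. The name Ctage5 is a synonym of Mia2 in the annotation, and the Mia2 entry had 2 counts over all 12 libraries, too few to test. Whether reads of Ctage5 were counted under another Entrez identifier could not be settled from the tables used here, so its level is not known. The other 50 genes were tested.

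RNA-Seq covered 6 stages with 2 libraries each, all from B cells of male C57BL/6 mice (Pep3b background, 6–12 weeks of age), sorted or isolated from the spleen. Naive B cells were untreated and sorted by surface markers that included B220, IgM and a high level of IgD. All other cells were cultured with 25 µg/ml lipopolysaccharide (LPS), a bacterial product that activates B cells, and were sorted at 3, 10 and 33 h as undivided CD69+ cells or on day 4 as expanded B cells (CD22+CD138-) or plasmablasts (CD22-CD138+). The paper's methods describe a division dye (CellTrace Violet) for the undivided cells and a lower culture density for the day 4 cells. Stage and culture density thus changed together from 33 h to day 4 and cannot be told apart. The study describes the pair at each stage as biological replicates. Expanded cells and plasmablasts therefore came from the same kind of culture and differed by the CD22 and CD138 gates.

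Proteins made for secretion leave the ER in vesicles with a COPII coat, which the GTPase SAR1 assembles from the inner coat SEC23-SEC24 and the outer coat SEC13-SEC31. Vesicles with a COPI coat, assembled by the GTPase ARF1, return escaped ER proteins and receptors from the Golgi. Plasmablasts secrete antibody in bulk through this route, and growth of the secretory pathway is a known feature of these cells.

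Total counts per library ranged from 23026619 to 60585587, and the 51 genes took 0.478% to 0.484% of all counts in naive cells and 1.21% to 1.24% in plasmablasts. The labels were checked against marker genes. Cd22, which the gate of plasmablasts excludes, was at 1.14–1.36 CPM (counts per 1e+06 counts) in plasmablasts. The 6 B cell markers, Cd22 among them, still summed to 2045–2102 CPM there, against at least 4137 elsewhere. The 5 plasmablast markers summed to 16396–16909 CPM in plasmablasts against at most 2684 elsewhere. Jchain alone gave 11733.1–12638.5 CPM of this sum. Irf4, another of the 5, ran the other way at 3 h, with 1952–2588 CPM against 828–975 in plasmablasts. In the naive libraries, the 5 erythroid markers summed to 146–196 CPM and the 6 myeloid markers to 121–274 CPM, none of them at 0, whereas no later library exceeded 2.11 and 37.4 CPM. The 6 T cell markers summed to at most 3.44 CPM in any library. The part of these other cells in the comparisons with naive cells was not tested, and in bulk RNA fewer cells of a type cannot be told apart from less RNA per cell.

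Levels are given in RPKM (reads per 1000 bases of exon and 1e+06 counts), computed from the deposited counts and exon lengths, so that genes can be compared with each other, and the 2 libraries of a stage are given as the lower to the higher value. Tests were those of edgeR's glmTreat against a fold change of 1.5 with Benjamini-Hochberg adjustment over all 12767 genes tested, and every adjusted p below is from it. "Rose" and "fell" are used for genes that passed at 0.05.

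Most of these genes were at their highest in plasmablasts. Of the 50 genes tested, 41 had their highest mean level in plasmablasts (82% of them, against 23.4% of all genes tested), 5 at 3 h, 2 in naive cells, 1 at 10 h and 1 in expanded cells. Of all genes, 23.9% were highest at 3 h, 22.6% in naive cells, 11.1% at 10 h and 9.43% in expanded cells. In the same number, 41, both plasmablast libraries lay above the other 10 libraries, which held for 19.4% of all genes tested. The lowest mean was in naive cells for 24 of the 50 genes, at 3 h for 8 and at 10 h for 8. It was at 33 h for 7, in expanded cells for 0 and in plasmablasts for 3. Of all genes tested, 22.5%, 25.8%, 9.49%, 8.96%, 9.75% and 23.4% had their lowest mean at these stages in order. These genes were broadly expressed, and 46 of the 50 were above 1 RPKM in every library.

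**Figure D1:**
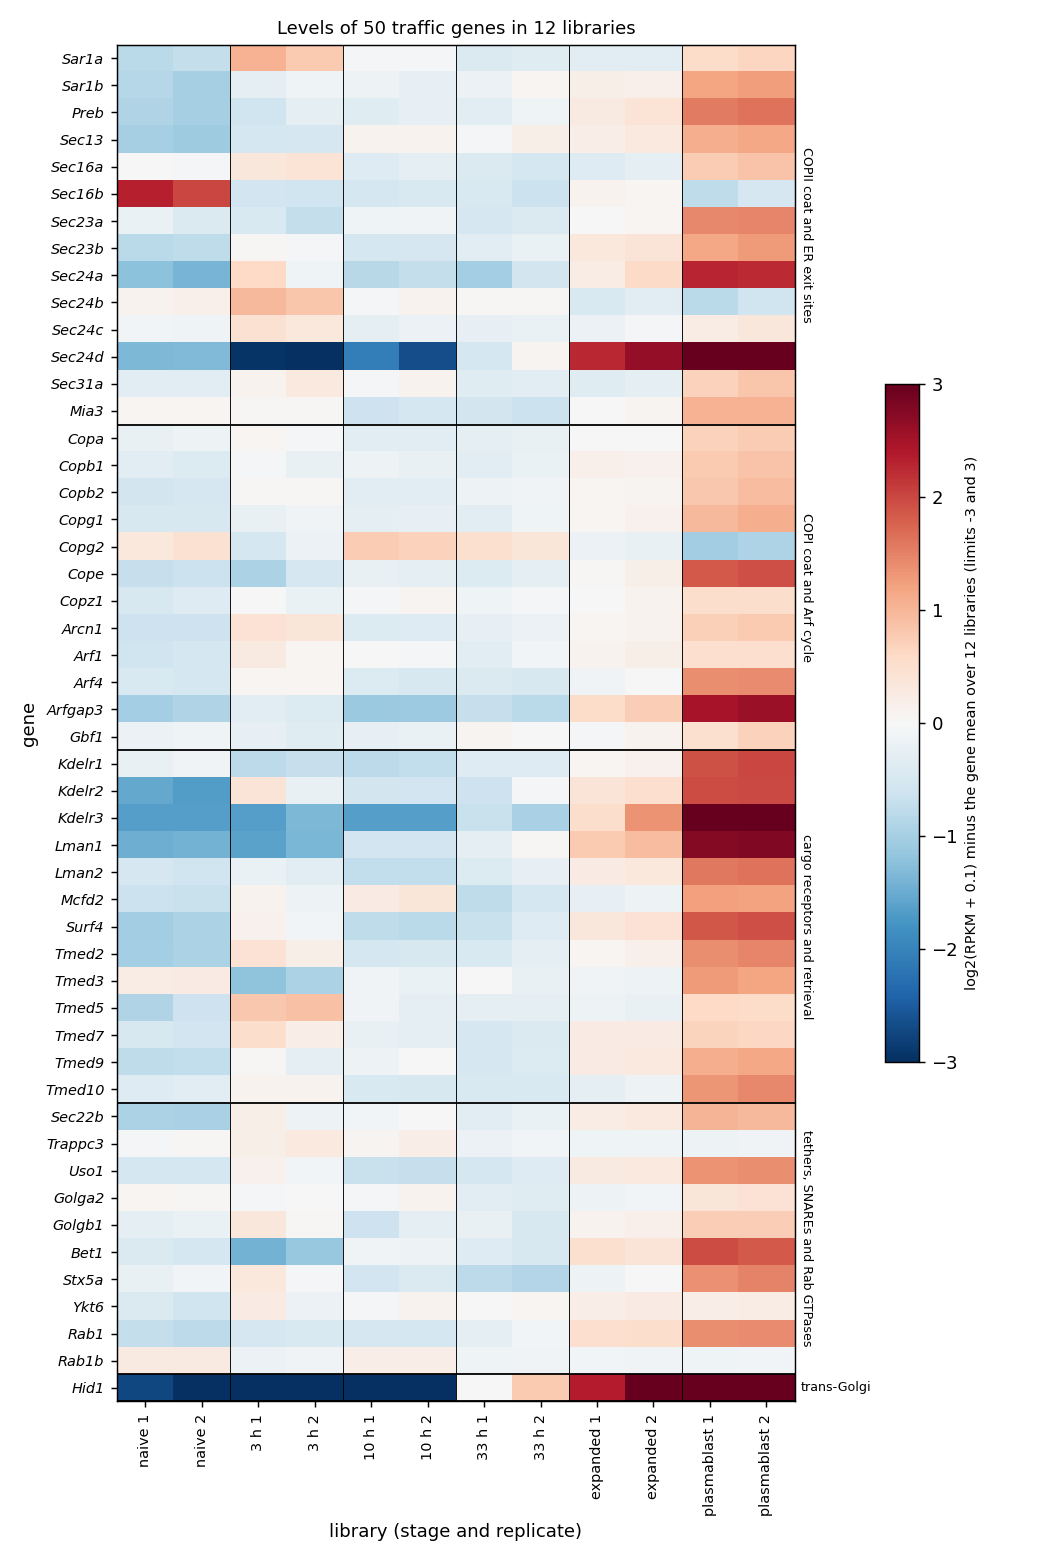
Levels of the 50 genes tested (rows, by role) in the 12 libraries (columns), as log2(RPKM + 0.1) minus the mean of the gene over the 12 libraries, with colours limited to -3 and 3. Both plasmablast libraries are the highest in 41 rows, and Sec16b, Sec24b and Copg2 run the other way.

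From expanded B cells to plasmablasts, 33 of the 50 genes rose (66%) and 2 fell (4%), where 14.0% of all genes rose and 12.2% fell. The median log2 fold change of the 50 was 0.97, and that of all genes was -0.05. With libraries scaled by their size alone, the median of all genes shifted by -0.34, and 23 members rose (46% of them, against 9.31% of all genes) and 2 fell (against 23.2%). From naive cells to plasmablasts, which adds the changes of all steps, 42 rose (84%) and 3 fell (6%), against 26.6% and 23.4% of all genes. The median was then 1.67 for the members and 0.02 for all genes. With library size alone, which moved the median of all genes by -0.28, 36 rose and 3 fell, against 21.5% and 30.4% of all genes.

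In the shares of genes called, the 4 earlier steps were closer to the background. The members' median log2 fold changes at these steps were 0.48, -0.17, 0.00 and 0.45 in order, against -0.03, 0.02, -0.02 and -0.02 for all genes. From naive cells to 3 h, 11 members rose (22%) and 4 fell (8%), where 21.0% of all genes rose and 24.3% fell. From 3 h to 10 h, 4 rose and 7 fell, against 17.4% and 13.4% of all genes, and from 10 h to 33 h 3 rose and 1 fell, against 10.1% and 4.45%. From 33 h to expanded cells 8 rose (16%) and 0 fell, against 7.0% and 3.67%. With the F-test of edgeR, which asks for a change of any size, 35 rose and 2 fell at the step from 33 h to expanded cells, against 18.5% and 21.3% of all genes by the same test. From naive cells to 3 h this test called 35 members up and 8 down, where it called 71.0% of all genes in either direction. Scaling by library size alone gave 8 rises and 6 falls from naive to 3 h, against 16.4% and 29.2% of all genes. From 3 h to 10 h it gave 7 rises and 0 falls, against 26.9% and 7.86%. It moved the median of all genes by -0.21 and by 0.33 at these steps.

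**Figure D2:**
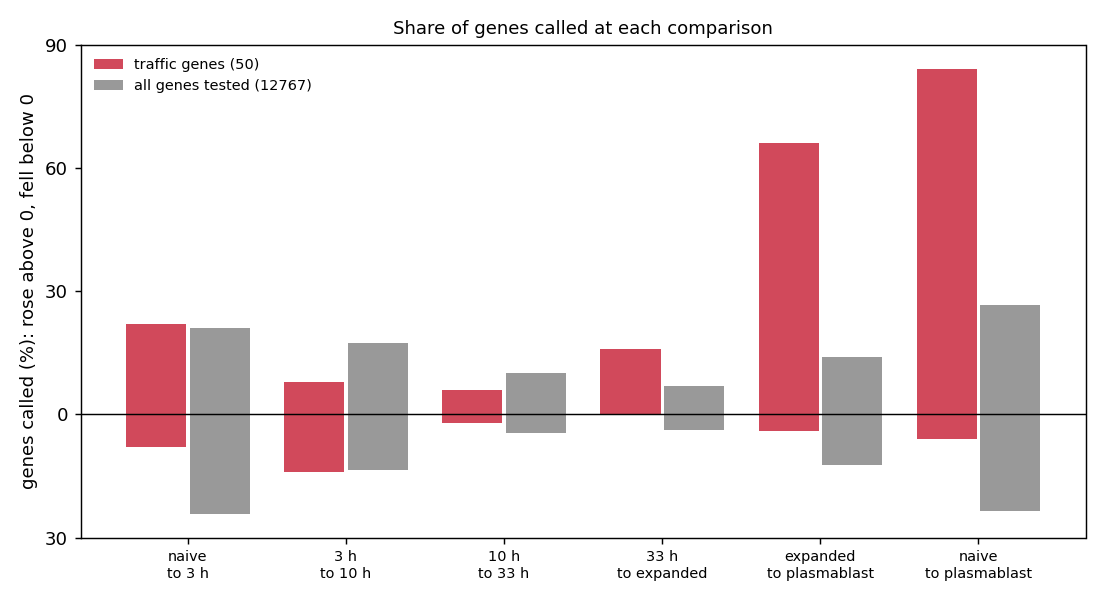
Percent of genes called as risen (above 0) or fallen (below 0) at each comparison, for the 50 traffic genes (red) and all 12767 genes tested (grey). The red bars exceed the grey ones clearly for rises from expanded cells and from naive cells to plasmablasts, at 66% against 14.0% and 84% against 26.6%.

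The COPII genes took part in the rise to plasmablasts with 11 of 14 tested members, and 1 fell. The sum over their levels was 359 to 362 RPKM in the naive libraries, 511 to 544 in expanded cells and 1034 to 1093 in plasmablasts. At 3 h it was already 599 to 631 RPKM, above the other libraries up to expanded cells, before 455 to 471 RPKM at 10 h. The largest part of this came from Sar1a, one of the pair of GTPases that start coat assembly.

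Sar1a had 54.0 to 57.0 RPKM in naive cells, 164 to 195 at 3 h, 90.5 to 92.5 at 10 h, 69.7 to 72.7 at 33 h, 75.3 to 76.2 in expanded cells and 139 to 146 in plasmablasts. The 3 h libraries were the highest and did not overlap with any other stage. Its log2 fold change was 1.69 (SE 0.09, adjusted p = 6.0e-08) from naive to 3 h and -0.97 (SE 0.09, adjusted p = 0.00059) from 3 h to 10 h, 2 comparisons that share the 3 h libraries. The latter call was lost with library size alone. Sar1b, the other GTPase, had no such peak, with 22.0 to 24.2 RPKM in naive cells, 36.5 to 40.4 at 3 h and 99.8 to 106 in plasmablasts. From expanded cells to plasmablasts Sar1a rose by 0.91 (SE 0.09, adjusted p = 0.0019) and Sar1b by 1.05 (SE 0.10, adjusted p = 0.00039) on the log2 scale, both lost with library size alone. The share of Sar1b in the RPKM of the pair was 29.4% ± 2.22 (SD, n = 2) in naive cells, 17.8% ± 2.84 at 3 h and 41.9% ± 0.15 in plasmablasts. Preb, the exchange factor that loads SAR1 with GTP on the ER membrane, was at 8.99 to 9.61 RPKM in naive cells and at 53.0 to 56.0 in plasmablasts, and rose 2.38-fold from expanded cells.

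The 4 SEC24 genes, which encode the cargo-binding subunit of the inner coat, separated from one another. Sec24d (Entrez 69608, chromosome 3 of GRCm38 from 123264801 to 123365641) had 1.59 to 1.62 RPKM in naive cells, 0.36 to 0.46 at 3 h, 0.58 to 0.92 at 10 h, 2.89 to 4.48 at 33 h, 20.4 to 26.5 in expanded cells and 100 to 103 in plasmablasts. It thus fell at 3 h and then rose at each of the steps from 10 h on, with no overlap between 10 h, 33 h, expanded cells and plasmablasts. Its log2 fold changes were -2.00 (SE 0.32, adjusted p = 0.00073) from naive to 3 h, 2.26 (SE 0.24, adjusted p = 9.7e-05) from 10 h to 33 h, 2.68 (SE 0.21, adjusted p = 1.4e-05) from 33 h to expanded cells and 2.12 (SE 0.20, adjusted p = 2.4e-05) to plasmablasts. The fall at 3 h was not called without 3 h replicate 2 (adjusted p = 0.052), and the 3 rises were called under each alternative tried. Over the whole course, from naive cells to plasmablasts, it rose by 5.98 (SE 0.25, adjusted p = 1.6e-09).

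Sec24a was also at its highest in plasmablasts, with 1.88 to 2.12 RPKM in naive cells, 4.63 to 7.75 at 3 h, 2.82 to 3.05 at 10 h, 5.94 to 7.58 in expanded cells and 24.4 to 25.2 in plasmablasts. It rose at 3 h by 1.62 (SE 0.23, adjusted p = 0.00051), fell by 1.07 (SE 0.22, adjusted p = 0.025) to 10 h, and rose again from 33 h by 1.20 (SE 0.22, adjusted p = 0.022) and from expanded cells by 1.88 (SE 0.22, adjusted p = 0.00016) on the log2 scale. From naive cells to plasmablasts its rise was 3.63 (SE 0.24, adjusted p = 1.3e-07). The fall to 10 h was lost under 5 alternatives, and the rise from 33 h without 33 h replicate 1, without expanded replicate 2 and with DESeq2. Sec24b ran against the other genes. It had 23.1 to 23.9 RPKM in naive cells, 38.5 to 42.5 at 3 h and 12.3 to 14.2 in plasmablasts, where it was lowest. From naive cells to plasmablasts it fell by 0.83 (SE 0.10, adjusted p = 0.0083), a call lost without plasmablast replicate 1 and with DESeq2. From expanded cells the difference was -0.29 (SE 0.10, adjusted p = 1), not called. Sec24c stayed between 44.7 and 74.3 RPKM in all libraries and was called in no comparison, with a log2 difference of 0.39 (SE 0.09, adjusted p = 1) from expanded cells to plasmablasts.

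These movements changed the makeup of the family. Sec24c held 64.8% ± 0.95 and Sec24b 30.5% ± 1.09 of the RPKM of the 4 genes in naive cells, while Sec24a held 2.59% ± 0.19 and Sec24d 2.08% ± 0.05. In expanded cells Sec24d held 24.2% ± 1.88 and in plasmablasts 49.5% ± 0.60 (SD, n = 2), while Sec24c was at 31.9% ± 0.84, Sec24a at 12.1% ± 0.68 and Sec24b at 6.45% ± 0.45. The summed level of the family was 76.5 to 77.7 RPKM in naive cells and 200.2 to 210 RPKM in plasmablasts. In counts, which weight longer transcripts more, the share of Sec24d in plasmablasts was 42.7%.

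**Figure D3:**
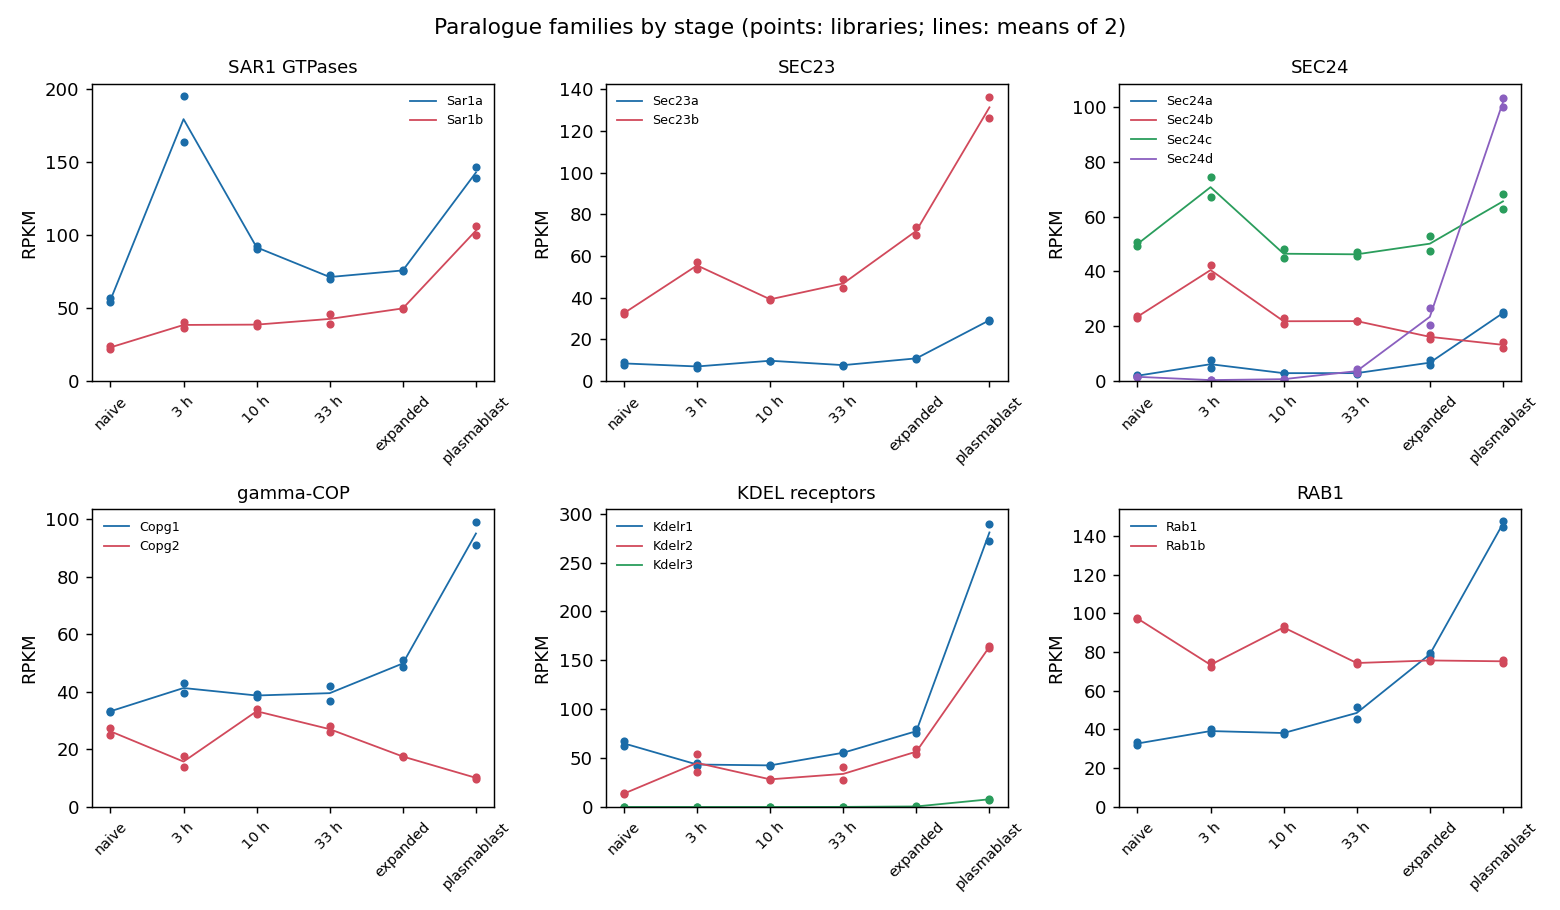
RPKM of the genes of 6 paralogue families by stage, with a point for each library and lines through the means of 2. Sec24d, Copg1 and Rab1 climb to plasmablasts beside Sec24b, Copg2 and Rab1b, which do not. Kdelr1, Kdelr2 and Kdelr3 all rise from expanded cells to plasmablasts, and Sar1a peaks at 3 h at 164 and 195 RPKM.

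The genes of the other inner coat subunit, SEC23, had nearly the same shares in naive cells and plasmablasts. Sec23b rose from expanded cells to plasmablasts by 0.86 (SE 0.08, adjusted p = 0.0032, lost with library size alone) and Sec23a by 1.42 (SE 0.11, adjusted p = 5.9e-06). Sec23b had 32.2 to 33.0 RPKM in naive cells and 126 to 136 in plasmablasts, and held 79.3% ± 2.30 of the pair in naive cells and 81.8% ± 0.60 in plasmablasts. Sec23a was at 6.47 to 11.1 RPKM in the first 5 stages and at 29.0 to 29.5 in plasmablasts. For the outer coat, Sec13 rose by 0.88 (SE 0.09, adjusted p = 0.0032, lost with library size alone) and Sec31a by 1.10 (SE 0.09). Sec13 reached 160 to 168 RPKM and Sec31a 113 to 124 RPKM in plasmablasts.

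Among the organisers of ER exit sites, Sec16a, the main scaffold, had 33.9 to 34.1 RPKM in naive cells, 26.6 to 28.4 in expanded cells and 58.9 to 62.2 in plasmablasts, a rise of 1.14 (SE 0.08, adjusted p = 1.5e-05) from expanded cells. Mia3 (TANGO1), which helps to load large cargo, rose by 1.01 (SE 0.08, adjusted p = 0.00010, lost with library size alone) and was between 16.9 and 28.1 RPKM in all earlier libraries. Sec16b, the shorter paralogue of Sec16a, was at 0.64 to 0.83 RPKM in naive cells (131 and 77 counts) and at most 0.10 RPKM in every later library. At 3 h it had 2 and 3 counts, so that the level in naive cells was at least 25.8-fold higher when 3 counts are allowed in each 3 h library. It fell from expanded cells to plasmablasts as well, from 18 and 14 counts to 1 and 4 counts (-2.15, SE 0.57, adjusted p = 0.023), and this call was lost under 4 alternatives, among them DESeq2.

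The promoters of these genes were searched for the elements through which the unfolded protein response, the ER stress pathway with the factors ATF6 and XBP1, is known to act. RefSeq windows (GRCm38.p6) of 250 bases before to 50 bases after the start were at hand for 44 of the 51 genes, those of Arcn1, Golgb1, Hid1, Kdelr2, Lman1, Tmed2 and Tmed7 not being in the table. On either strand, the motif TGACGTGG, the core of the unfolded protein response element (UPRE), was in the windows of 9 of the 44 genes (20.5%), against 0.714% of all 27025 genes with a window and 1.01% of the 9919 genes with a window that were tested. The core GCCACGT, whose letters overlap with the reverse strand of that motif, was in 16 genes (36.4%), against 2.95% of all and 4.57% of the tested genes. With only the 250 bases before the start, the counts were 6 and 10 genes. The ER stress elements ERSE (CCAAT, 9 bases, CCACG) and ERSE-II (ATTGG, 1 base, CCACG) were in none of the 44 windows and in 0.137% and 0.0444% of all genes.

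Matches were found among genes that rose to plasmablasts and among those that did not. TGACGTGG was in 5 of the 29 genes with a window that rose from expanded cells and in 4 of the 14 other genes tested, and GCCACGT in 12 of the 29 and 3 of the 14. With only the 250 bases before the start, TGACGTGG was in 2 of the 29 and 4 of the 14, and GCCACGT in 6 and 3. Sec16b, which fell, was among those 4 with TGACGTGG. The remaining window, of the untested Ctage5 (Mia2), carried GCCACGT. The windows of 3 genes are shown for the 250 bases before the start, 5′ to 3′ on the strand of the gene, with the matches in capitals: those of Sec24d and Kdelr3, which carried both motifs in 1 run of letters and rose most in their families, and that of Sec24c, which carried GCCACGT on the reverse strand and was called in no comparison.
Sec24d (GRCm38.p6, chr3:123267246-123267495, plus strand): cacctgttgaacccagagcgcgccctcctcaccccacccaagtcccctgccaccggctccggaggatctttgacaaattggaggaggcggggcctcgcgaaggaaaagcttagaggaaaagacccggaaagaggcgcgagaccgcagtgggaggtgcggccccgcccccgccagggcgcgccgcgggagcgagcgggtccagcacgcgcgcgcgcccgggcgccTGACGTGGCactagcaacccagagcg
Kdelr3 (GRCm38.p6, chr15:79516158-79516407, plus strand): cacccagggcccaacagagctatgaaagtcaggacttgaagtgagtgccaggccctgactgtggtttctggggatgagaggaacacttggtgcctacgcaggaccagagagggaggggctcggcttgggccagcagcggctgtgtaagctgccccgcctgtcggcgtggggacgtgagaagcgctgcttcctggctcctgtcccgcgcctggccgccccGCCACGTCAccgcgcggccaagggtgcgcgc
Sec24c (GRCm38.p6, chr14:20674071-20674320, plus strand): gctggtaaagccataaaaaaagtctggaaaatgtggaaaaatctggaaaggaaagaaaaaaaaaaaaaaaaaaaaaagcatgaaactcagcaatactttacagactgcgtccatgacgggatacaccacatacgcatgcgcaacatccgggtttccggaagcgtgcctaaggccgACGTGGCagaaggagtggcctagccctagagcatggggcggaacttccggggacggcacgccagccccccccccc
In Sec24d the UPRE core lay 26 to 19 bases before the start that the table of windows gives and in Kdelr3, on the reverse strand, 30 to 23 bases before it, whereas GCCACGT in Sec24c lay 75 to 69 bases before the start. For Sec24d that start lies 2695 bases inside the span of the gene given above, so that the window covers a downstream start, and for Sec24c it lies 36 bases inside. Arf1, Sec23a, Stx5a and Sec16b also held both motifs, and Gbf1, Copb1 and Copb2 only TGACGTGG. A match is a description of these letters and not evidence of binding.

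Of the 12 COPI genes, 5 rose and 1 fell from expanded cells to plasmablasts, and 11 rose and 1 fell from naive cells. The sum over their levels was 733 to 750 RPKM in naive cells, 1054 to 1105 in expanded cells and 2089 to 2188 in plasmablasts.

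The largest part of the last step came from a single subunit of the coat, epsilon-COP. Its gene Cope (Entrez 59042, chromosome 8 of GRCm38 from 70302767 to 70313002) had 109 to 112 RPKM in naive cells, 91.7 to 124 at 3 h, 146 to 150 at 10 h, 132 to 144 at 33 h, 179 to 197 in expanded cells and 629 to 667 in plasmablasts. The plasmablast libraries stood far above the others, and the rise from expanded cells was 3.44-fold (log2 1.78, SE 0.12, adjusted p = 8.7e-07). The other subunits of the 7 in the coatomer moved less. In expanded cells and then plasmablasts, Copa (alpha) had 120 to 121 and 193 to 201 RPKM, Copb1 (beta) 72.8 to 74.6 and 116 to 121 RPKM, and Arcn1 (delta) 93.2 to 95.3 and 145 to 155 RPKM. For all of these the plasmablast libraries lay above every other library, but the differences of 0.71 (SE 0.07, adjusted p = 0.066), 0.69 (SE 0.09, adjusted p = 0.14) and 0.67 (SE 0.07, adjusted p = 0.14) did not pass against a fold of 1.5. Copb2 (beta prime) rose by 0.79 (SE 0.07, adjusted p = 0.0091), and was not called under 4 alternatives.

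Copz1 (zeta) differed least, with 59.3 to 63.4 RPKM in expanded cells and 83.9 in each plasmablast library, a difference of 0.45 (SE 0.10, adjusted p = 1). Thus epsilon-COP transcripts per length were 1.88 and 1.89 times the median of the other subunits in naive cells, between 1.14 and 2.34 times in the libraries of the next 4 stages, and 4.81 and 4.85 times in plasmablasts. The highest subunit was 2.33 to 3.11 times the lowest up to expanded cells, and 7.49 and 7.95 times in plasmablasts.

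**Figure D4:**
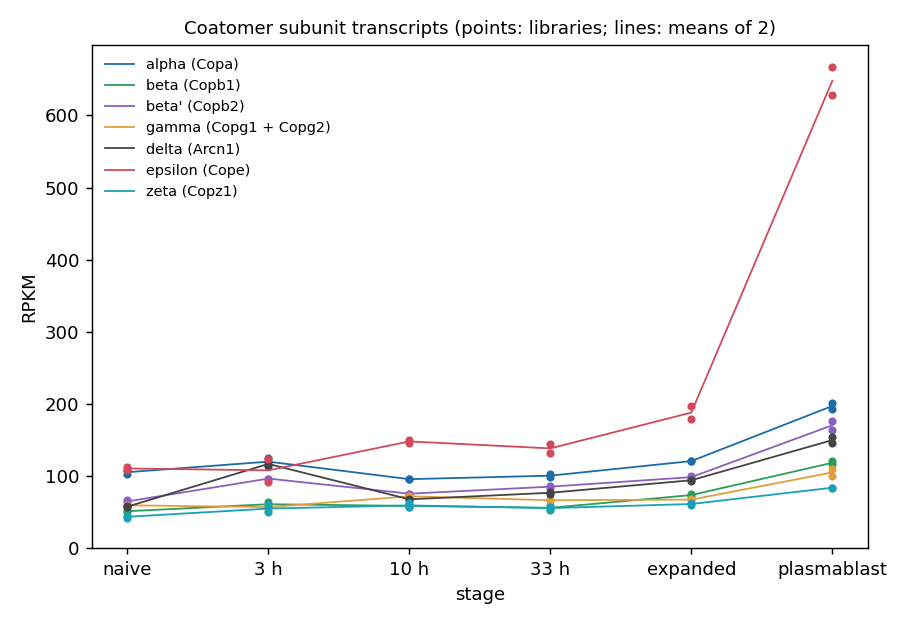
RPKM of the transcripts of the 7 coatomer subunits by stage, with points for libraries and lines through the means of 2, gamma being the sum of Copg1 and Copg2. Epsilon (Cope) stands apart in plasmablasts at 629 and 667 RPKM, and zeta (Copz1) is lowest there at 83.9.

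The gamma subunit exists in versions from a pair of genes, and these moved in opposite directions from naive cells to plasmablasts. Copg1 had 33.1 to 33.4 RPKM in naive cells, 48.6 to 51.1 in expanded cells and 91.1 to 98.9 in plasmablasts, and rose at the last step by 0.93 (SE 0.09, adjusted p = 0.0011, lost with library size alone). Copg2 (Entrez 54160, chromosome 6 of GRCm38 from 30747554 to 30896815) had 25.1 to 27.5 RPKM in naive cells, 13.9 to 17.6 at 3 h, 32.4 to 34.2 at 10 h, 25.9 to 28.1 at 33 h, 17.3 to 17.8 in expanded cells and 9.75 to 10.5 in plasmablasts. Its highest libraries were those at 10 h, after a rise of 1.07 (SE 0.11, adjusted p = 0.00053) from 3 h, and its lowest were plasmablasts. From naive cells to plasmablasts it fell by 1.38 (SE 0.11, adjusted p = 4.7e-06), under every alternative. The part of this from expanded cells was near the threshold (-0.79, SE 0.11, adjusted p = 0.049) and was lost under 9 of 15 alternatives. The share of Copg2 in the pair was 44.1% ± 1.74 in naive cells, 26.0% ± 1.06 in expanded cells and 9.63% ± 0.06 in plasmablasts.

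In the Arf cycle, Arf1, the GTPase that recruits coatomer, was among the most abundant genes of the set at 139 to 145 RPKM in naive cells, 217 to 251 at 3 h and 295 to 297 in plasmablasts. It was called only from naive cells to plasmablasts (1.05, SE 0.10, adjusted p = 9.7e-05) and at no single step. Its relative Arf4, which also acts at the early Golgi, had 95.5 to 103 RPKM in expanded cells and 270 to 275 in plasmablasts and rose by 1.46 (SE 0.08, adjusted p = 2.3e-07). Arfgap3, which ends the Arf1 cycle by GTP hydrolysis, showed the largest relative rise of the group. It was at 3.86 to 6.82 RPKM up to 33 h, at 12.4 to 14.1 in expanded cells and at 47.8 to 51.6 in plasmablasts, and rose by 1.41 (SE 0.11, adjusted p = 2.1e-05) from 33 h and by 1.90 (SE 0.10, adjusted p = 9.7e-08) from expanded cells. Gbf1, the exchange factor that activates ARF1 at the early Golgi, was between 24.8 and 34.1 RPKM before and at 43.9 to 50.9 in plasmablasts, with 0.54 (SE 0.09, adjusted p = 0.80) from expanded cells and a call from naive cells (0.74, SE 0.09, adjusted p = 0.037) that was lost under 6 alternatives.

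Of the cargo and retrieval receptors, 12 of 13 rose from expanded cells to plasmablasts and 13 of 13 from naive cells, with a median log2 fold change of 1.43 and 2.11. Their summed level was 433 to 445 RPKM in naive cells, 815 to 853 in expanded cells and 2127 to 2200 in plasmablasts. Tmed7 was the exception at the last step (0.40, SE 0.10, adjusted p = 1).

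KDEL receptors bind ER residents that carry the KDEL signal in the Golgi and return them. Kdelr1 had 62.5 to 67.5 RPKM in naive cells, 42.0 to 44.8 at 3 h, 75.5 to 79.6 in expanded cells and 272 to 290 in plasmablasts, and rose at the last step by 1.86 (SE 0.08, adjusted p = 2.2e-08). Kdelr2 was lower in naive cells, at 12.9 to 14.4 RPKM, and was at 35.5 to 54.7 at 3 h, 27.9 to 28.6 at 10 h, 54.2 to 59.0 in expanded cells and 163 to 165 in plasmablasts. It rose at 3 h by 1.71 (SE 0.20, adjusted p = 0.00012) and from expanded cells by 1.53 (SE 0.20, adjusted p = 0.00048), and by 3.58 (SE 0.22, adjusted p = 5.2e-08) over the whole course. The 3 h libraries lay apart from each other, but both were above the naive pair.

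Kdelr3 (Entrez 105785, chromosome 15 of GRCm38 from 79516408 to 79527739) was almost absent before plasmablasts. It had 0 counts in both naive and both 10 h libraries, 0 and 1 count at 3 h, 8 and 3 counts at 33 h, 20 and 33 in expanded cells and 251 and 329 in plasmablasts, which is 7.51 and 8.20 RPKM there. With 3 counts allowed in each naive library, the plasmablast level was at least 108-fold higher. From expanded cells it rose by 3.92 (SE 0.31, adjusted p = 3.3e-06) on the log2 scale. The call from 10 h to 33 h (5.06, SE 1.41, adjusted p = 0.037) rested on those few counts and was lost under 6 alternatives. Of the RPKM of the 3 receptors, Kdelr3 held 1.73% ± 0.05 in plasmablasts, Kdelr2 36.2% ± 0.91 and Kdelr1 62.0% ± 0.86. The share of Kdelr2 was 17.4% ± 1.86 in naive cells, but already 50.4% ± 8.72 at 3 h and 42.0% ± 0.46 in expanded cells. It thus did not grow at the last step, where the share of Kdelr1 went up from 57.6% ± 0.62.

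LMAN1 and MCFD2 form a receptor that exports glycoproteins from the ER. Lman1 had 12.6 to 13.0 RPKM in naive cells, 11.4 to 13.5 at 3 h, 23.3 to 23.4 at 10 h, 29.1 to 36.0 at 33 h, 60.2 to 66.7 in expanded cells and 235 to 241 in plasmablasts. It climbed at each step after 3 h, and rose from expanded cells by 1.91 (SE 0.11, adjusted p = 1.7e-07) and from 33 h by 0.96 (SE 0.11, adjusted p = 0.0060), the latter lost without 33 h replicate 1 or without expanded replicate 2. Over the whole course its rise was 4.22 (SE 0.12, adjusted p = 3.7e-11). The partner Mcfd2 was lower, with 7.05 to 7.07 RPKM in naive cells, 13.3 to 14.4 at 10 h, 6.52 to 7.76 at 33 h and 26.0 to 26.5 in plasmablasts. It fell from 10 h to 33 h by 0.96 (SE 0.12, adjusted p = 0.0075), a call lost under 3 alternatives, and rose from expanded cells by 1.43 (SE 0.12, adjusted p = 1.1e-05). Lman2, a related lectin, reached 287 to 296 RPKM.

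Surf4, a receptor for a broad range of soluble cargo, was the most abundant of the group in plasmablasts. It had 55.7 to 58.9 RPKM in naive cells, 107 to 125 at 3 h, 65.3 to 66.8 at 10 h, 71.2 to 86.6 at 33 h, 145 to 154 in expanded cells and 417 to 433 in plasmablasts. It rose by 1.02 (SE 0.10, adjusted p = 0.00034) at 3 h and by 1.51 (SE 0.10, adjusted p = 1.7e-06) at the last step. The fall from 3 h to 10 h (-0.81, SE 0.10, adjusted p = 0.020) was lost under 4 alternatives.

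The 6 TMED genes encode p24 proteins, which cycle between ER and Golgi in both coats. Tmed10 rose by 1.59 (SE 0.08, adjusted p = 1.1e-07), Tmed3 by 1.36 (SE 0.11, adjusted p = 1.4e-05) and Tmed2 by 1.32 (SE 0.10, adjusted p = 6.9e-06) from expanded cells to plasmablasts. For Tmed9 the rise was 0.86 (SE 0.10, adjusted p = 0.012), lost under 3 alternatives, and for Tmed5 it was 0.77 (SE 0.10, adjusted p = 0.040), lost under 7. Early in activation the family split. Tmed5 had 27.6 to 33.1 RPKM in naive cells, 89.2 to 94.6 at 3 h and 42.4 to 47.8 at 10 h, and its 3 h libraries were its highest. Tmed3 did the opposite, with 25.1 to 25.6 RPKM in naive cells, 9.27 to 11.0 at 3 h and 18.8 to 20.0 at 10 h, where the 3 h libraries were its lowest. Their log2 fold changes from naive to 3 h were 1.60 (SE 0.10, adjusted p = 2.4e-07) and -1.31 (SE 0.12, adjusted p = 1.6e-05), both called under every alternative.

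Of the tethers, SNAREs and Rab GTPases, 4 of 10 rose from expanded cells to plasmablasts and none fell, and 4 of the 5 genes of the whole set that were called in no comparison belong here. Trappc3, of the TRAPP tethering complex, was at 33.0 to 45.7 RPKM, Golga2 (GM130), a matrix protein of the cis-Golgi, at 15.0 to 26.3, the SNARE Ykt6 at 27.3 to 49.1 and Rab1b at 72.2 to 97.4. Between expanded cells and plasmablasts the log2 differences of Trappc3, Ykt6 and Rab1b were -0.00 (SE 0.09), -0.02 (SE 0.12) and -0.01 (SE 0.07).

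Rab1 (Rab1a), the paralogue of Rab1b that controls the same ER to Golgi tethering step, behaved differently. It had 32.1 to 33.5 RPKM in naive cells, 38.4 to 40.0 at 3 h, 37.8 to 38.5 at 10 h, 45.6 to 51.5 at 33 h, 78.0 to 79.7 in expanded cells and 145 to 148 in plasmablasts. The rise from expanded cells was 0.89 (SE 0.08, adjusted p = 0.0015, lost with library size alone) and from naive cells 2.16 (SE 0.09, adjusted p = 6.4e-10). Its share of the pair was 25.2% ± 0.56 in naive cells, 51.0% ± 0.47 in expanded cells and 66.0% ± 0.02 in plasmablasts (SD, n = 2), so that Rab1b was the more abundant at the start and Rab1 at the end.

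Uso1 (p115), the tether to which RAB1 binds, rose by 1.09 (SE 0.09, adjusted p = 6.8e-05) and had 79.9 to 81.8 RPKM in plasmablasts. Golgb1 (giantin), a long tether of the Golgi rim, was at 14.5 to 14.7 RPKM there and was called only from naive cells. Among the SNAREs that fuse ER-derived vesicles, Stx5a rose by 1.51 (SE 0.12, adjusted p = 6.2e-06), with 31.9 to 35.0 RPKM before and 92.0 to 99.2 after, and Bet1 by 1.46 (SE 0.11, adjusted p = 4.4e-06), with 21.5 to 23.3 RPKM before and 59.1 to 64.6 after. Bet1 had its lowest libraries at 3 h, at 6.09 to 7.46 RPKM against 11.4 to 12.2 in naive cells and 14.9 to 15.4 at 10 h. It fell at 3 h by 0.79 (SE 0.12, adjusted p = 0.034), which was lost under 5 alternatives, and rose to 10 h by 1.15 (SE 0.12, adjusted p = 0.00027). Its rise from 33 h (0.87, SE 0.11, adjusted p = 0.026) was lost under 6. Sec22b, the partner SNARE, was at 60.8 to 62.2 RPKM in plasmablasts and at 15.7 to 15.8 in naive cells, with a rise at 3 h of 0.98 (SE 0.11, adjusted p = 0.0012) and a difference of 0.75 (SE 0.11, adjusted p = 0.083) at the last step.

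**Figure D5:**
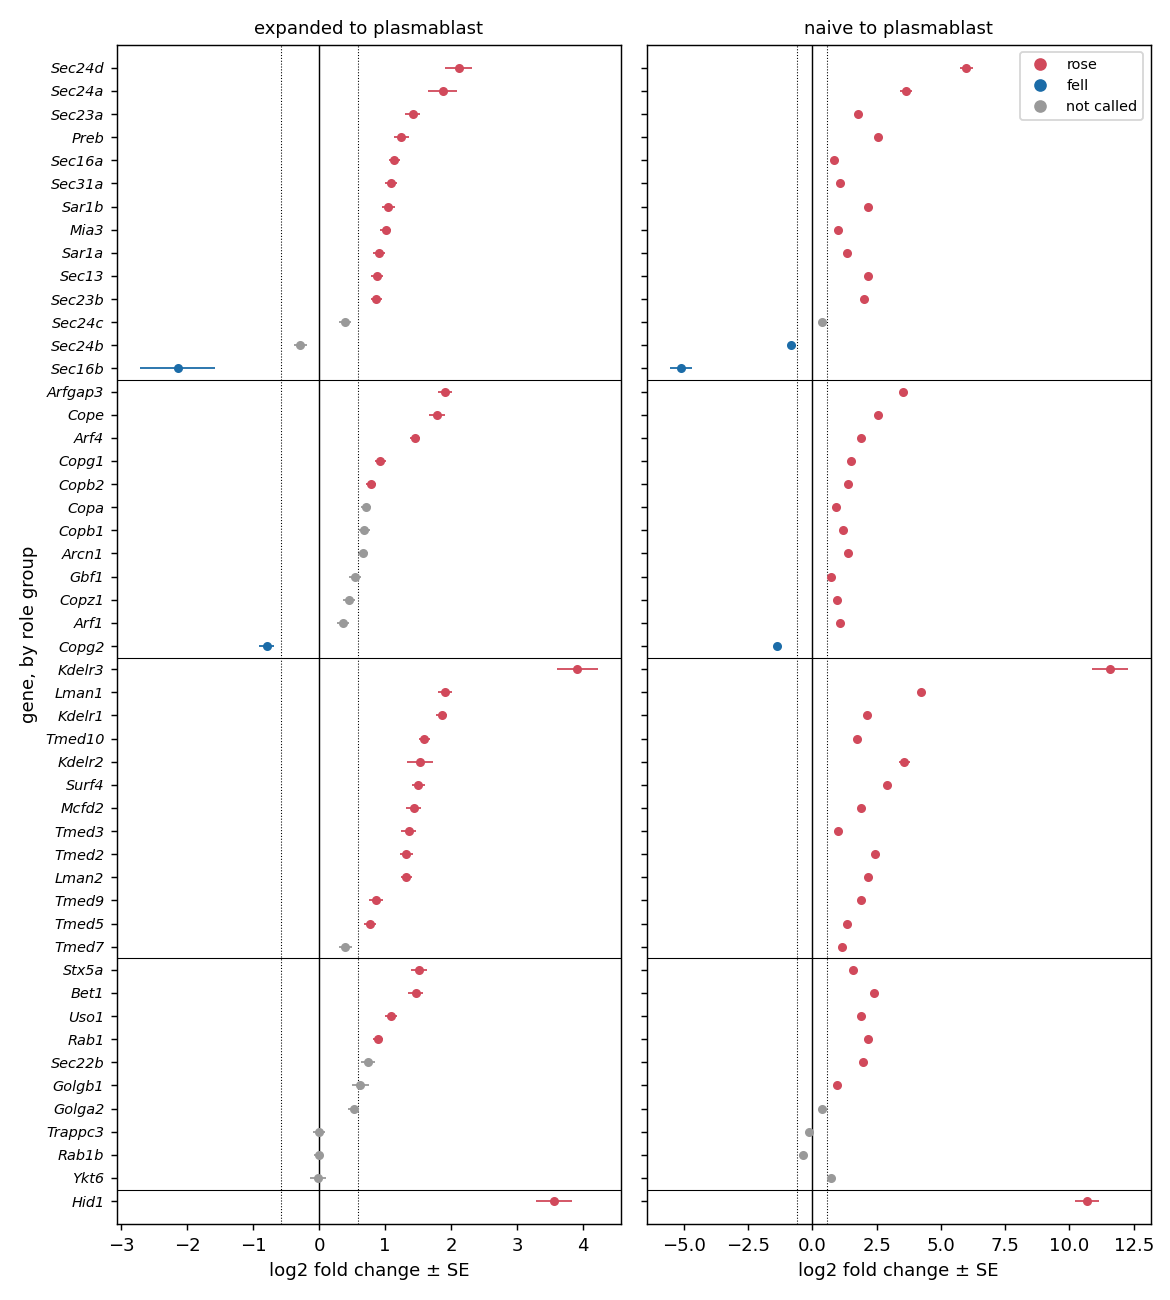
Log2 fold change with its standard error for each gene tested, by role from top (COPII) to bottom (Hid1), from expanded cells (left) and from naive cells (right) to plasmablasts, with dotted lines at a fold of 1.5 either way. Red points rose (33 and 42 genes), blue points fell (2 and 3 genes) and grey points were not called. The fitted changes of Kdelr3 and Hid1 from naive cells, and of Sec16b in both panels, involve libraries with few counts and depend on the prior count.

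Hid1 (Entrez 217310, chromosome 11 of GRCm38 from 115347705 to 115367756) encodes a protein of the trans-Golgi known from the sorting of cargo into dense-core vesicles of neuroendocrine cells. It had 9 and 2 counts in naive cells, 3 and 3 at 3 h and 6 and 1 at 10 h, all at or below 0.08 RPKM. The libraries at 33 h had 210 and 227 counts (1.12 and 2.00 RPKM), those of expanded cells 6.10 to 10.1 RPKM and those of plasmablasts 92.2 to 99.5 RPKM. The libraries at 33 h lay above all earlier ones, and expanded cells and then plasmablasts above these with no overlap, whereas naive cells, 3 h and 10 h overlapped. The rise was 5.86 (SE 0.60, adjusted p = 4.3e-05) from 10 h to 33 h, 2.41 (SE 0.29, adjusted p = 0.00042) to expanded cells and 3.56 (SE 0.27, adjusted p = 2.9e-06) to plasmablasts. The first of these ranged from 5.27 to 7.36 when single libraries were left out, since it is set against few counts. All 3 were called under each alternative in which Hid1 was tested, which leaves out the filter of at least 10 counts in every library. From naive cells to plasmablasts the fitted change was 10.69 (SE 0.46, adjusted p = 4.1e-09), and the plasmablast mean was 11.8-fold that of expanded cells.

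The 11 genes that rose from naive to 3 h were Kdelr2, Sar1a, Sec24a, Tmed5, Tmed2, Surf4, Arcn1, Sec22b, Tmed7, Sec24b and Sec23b, and the 4 that fell were Sec16b, Sec24d, Tmed3 and Bet1. Sec23b (0.77, SE 0.08, adjusted p = 0.016) and Sec24b (0.78, SE 0.10, adjusted p = 0.020) were lost under 7 and 6 alternatives and Tmed7 (0.89, SE 0.10, adjusted p = 0.0035) with library size alone, while Sec22b, Arcn1, Surf4, Tmed2, Tmed5, Sec24a, Sar1a and Kdelr2 were called under all of them. From 3 h to 10 h, in a comparison that uses the same 3 h libraries, Sec24a, Tmed5, Sar1a, Sec24b, Surf4, Tmed2 and Arcn1 fell and Bet1, Copg2, Tmed3 and Lman1 rose. Tmed5 fell by 1.03 (SE 0.10, adjusted p = 0.00038), Sec24b by 0.89 (SE 0.10, adjusted p = 0.0043), Tmed2 by 0.81 (SE 0.10, adjusted p = 0.018) and Arcn1 by 0.79 (SE 0.07, adjusted p = 0.0088). Tmed3 rose by 0.93 (SE 0.12, adjusted p = 0.0060), lost with DESeq2, and Lman1 by 0.90 (SE 0.11, adjusted p = 0.0067), lost with DESeq2 and without 3 h replicate 1. None of the 7 falls was called with library size alone, although all kept their sign, and 7 calls in place of 11 were left without 3 h replicate 1 or without 10 h replicate 1. Arcn1, for example, had 57.5 to 57.9 RPKM in naive cells, 114 to 120 at 3 h and 67.3 to 68.3 at 10 h, and Tmed2 had 36.6 to 38.5, 84.5 to 100.3 and 52.0 to 53.1 RPKM at the same stages.

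Between 10 h and the first division few of these genes moved. Hid1, Kdelr3 and Sec24d rose and Mcfd2 fell from 10 h to 33 h, and 2 calls in place of 4 were left without 10 h replicate 2 or without 33 h replicate 1. Arfgap3, Bet1, Hid1, Kdelr3, Lman1, Sec24a, Sec24d and Surf4 rose from 33 h to expanded cells. Here 3 calls in place of 8 were left without 33 h replicate 1 or without expanded replicate 2, and Arfgap3 and Sec24d were called under every alternative and Hid1 under each in which it was tested. Surf4 (0.93, SE 0.10, adjusted p = 0.0076) and Kdelr3 (2.60, SE 0.49, adjusted p = 0.0075) were lost without either of those libraries.

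The share of all genes called at least once was not computed. At consecutive steps 39 of the 50 members were called at least once, a number that thus has no background. The 11 that were not are Sec24c, Trappc3, Golga2, Ykt6 and Rab1b, which were called in no comparison at all, and Copa, Copb1, Copz1, Arf1, Gbf1 and Golgb1, which rose only over the whole course from naive cells to plasmablasts. The calls over the whole course of Copa (0.90, SE 0.07, adjusted p = 0.00026), Copz1 (0.95, SE 0.10, adjusted p = 0.00070), Golgb1 (0.97, SE 0.13, adjusted p = 0.0030), Tmed3 (0.999, SE 0.11, adjusted p = 0.00067) and Sec16a (0.83, SE 0.08, adjusted p = 0.0024) were lost with library size alone. With the F-test for a change of any size, 44 members rose and 3 fell from expanded cells to plasmablasts, against 27.3% and 29.7% of all genes.

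Another 91 genes of ER to Golgi traffic were listed by the same roles, and 89 of them were tested. The list, and so the counts below, included the transcription factor genes Creb3l1 and Creb3l2, which do not encode parts of the traffic machinery. From expanded cells to plasmablasts 28 rose and 2 fell, and from naive cells 41 rose and 8 fell, with median log2 fold changes of 0.51 and 0.68. These are 31.5% and 2.25%, and 46.1% and 8.99%, of the 89, beside the 14.0% and 12.2%, and 26.6% and 23.4%, of all genes. Of the earlier steps, that from naive to 3 h had 11 rises (12.4%) and 14 falls (15.7%), below the 21.0% and 24.3% of all genes. The step to 10 h had 17 rises (19.1%) and 3 falls (3.37%), against 17.4% and 13.4% of all genes. That to 33 h had 2 of each (2.25%), against 10.1% and 4.45%, and that to expanded cells had 5 rises (5.62%) and 0 falls, against 7.0% and 3.67%. Tmed6, another p24 gene, had 0.29 ± 0.22 RPKM in naive cells, 2.49 ± 0.92 at 33 h, 82.5 ± 9.79 in expanded cells and 289 ± 16.1 in plasmablasts (SD, n = 2), and rose by 5.10 (SE 0.25, adjusted p = 1.4e-07) from 33 h to expanded cells. Creb3l2, a transcription factor that is cleaved in the Golgi and is known to act on COPII genes such as Sec23a, rose from 33 h by 2.08 (SE 0.19, adjusted p = 4.8e-05), from 2.81 ± 0.90 to 11.8 ± 1.70 RPKM, and reached 52.1 ± 4.46 RPKM in plasmablasts. Its relative Creb3l1 rose to 4.00 ± 0.47 RPKM. Copz2, the second zeta gene of coatomer, rose from 0.23 ± 0.01 to 3.23 ± 0.84 RPKM at the last step, and Ergic1, a membrane protein of the intermediate compartment, from 50.2 ± 5.18 to 237 ± 15.0 RPKM (2.24, SE 0.13, adjusted p = 8.8e-08). Early in activation, Rab30, a Golgi Rab, was at 20.8 ± 0.43 RPKM in naive cells, fell to 3 h (-3.78, SE 0.13, adjusted p = 2.6e-10) and was at 4.78 ± 0.26 RPKM at 10 h, and Sec22c fell from 3.45 ± 0.24 to 0.52 ± 0.02 RPKM.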

How the data were processed

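Mouse splenic B cells were profiled by RNA-Seq of poly(A) RNA (TruSeq, 12 libraries). The authors aligned reads to mm10 and counted them with featureCounts on Entrez genes. The deposited values are raw counts, not normalized, with an exon length per gene, and the 12 single-sample files held the same counts. Symbols came from RefSeq GRCm38.p6 (25275 of 27179 IDs). Removed, after the study's methods, were genes with no entry, mitochondrial, rRNA, X and Y genes and variable immunoglobulin segments, leaving 23722 genes (84.1–90.6% of counts per library), of which filterByExpr kept 12767. The study's Hi-C data were not used here.

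edgeR 4.0.16 (R 4.3.3) was used with TMM scaling, a one-way layout of the 6 stages over all 12 libraries, robust quasi-likelihood dispersions and glmTreat against a fold change of 1.5, Benjamini-Hochberg at 0.05. RPKM used TMM library sizes. Each SE of a log2 fold change is its absolute value over the square root of the F statistic. That statistic is from edgeR's quasi-likelihood F-test, so the SE does not come from glmTreat and is only approximate for genes with few counts. The steps were tested on simulated data. DESeq2 1.42.0 was an alternative, as were 2 other scalings, the F-test without a fold threshold, 2 filters on low counts, 2 dispersion settings, a replicate block, fits to the 4 libraries compared, keeping the removed genes, and leaving out each library. A count of 3 in each library was the floor for a bound.

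The members and lists were chosen with earlier results of these data known, so no test was made over a list. Full statistics are given for the 5 called members with the largest change in each comparison (average log2 CPM of at least 2), for paralogue families at the last step and for calls that an alternative removed. Calls that an alternative added are given as counts. Of other traffic genes the 3 with the largest change per comparison were eligible. Genes outside this rule (such as Cope among the members) were described for their role in the coat or family after their values were seen.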

Additional observations from a re-analysis of the deposited data

How the results depend on the processing

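Of 118 member calls over the 6 comparisons, 78 were kept under every alternative in which the gene was tested, 26 were lost with library size alone, 16 with the DESeq2 Wald test and 1, that of Copg2 from expanded cells to plasmablasts, with the replicate block. No effect shared by libraries of the same replicate number was visible (correlations of replicate differences between stages from -0.139 to 0.0839). This cannot tell whether such libraries came from the same mouse or culture, which the labels do not give. With the block 34 members were called from expanded cells to plasmablasts (33 up, 1 down) and 45 from naive cells. No called member changed direction. Rab1b, not called from expanded cells to plasmablasts, changed sign around 0: 0.02 with DESeq2 size factors (0.0235) and the DESeq2 Wald test (0.0236), 0.013 with at least 10 counts in every library, 0.0013 with the removed genes kept, 0.016 with only the 4 libraries compared, and 0.035 and 0.0014 without plasmablast replicate 1 or 2, with a range of -0.032 to 0.035 over all libraries left out.

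The F-test without a fold threshold called 43, 32, 22 and 37 members at the first 4 steps in order (71.0%, 62.3%, 45.4% and 39.8% of all genes). Of the other traffic genes it called 72, 51, 38, 36 and 70 at the 5 steps and 76 from naive cells to plasmablasts. From expanded cells and from naive cells to plasmablasts, it called 57.0% and 74.1% of all genes. From 3 h to 10 h library size alone called 7 members. From 10 h to 33 h at least 10 counts in every library left 2 members and the DESeq2 Wald test left 2 members and 2 other genes, and from 33 h to expanded cells at least 10 counts left 3 other genes. The median of the members became 0.27, 0.16, -0.058, 0.63 and 1.38 with library size alone (naive to 3 h, 3 h to 10 h, 10 h to 33 h, expanded to plasmablast, naive to plasmablast), 0.43 (naive to 3 h) and 1.60 (naive to plasmablast) with at least 10 counts, and -0.25 from 3 h to 10 h with DESeq2 size factors (-0.246) and the Wald test (-0.246).

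With counts in place of RPKM, shares in naive cells and plasmablasts were 16.7% and 25.8% for Sar1b, 73.1% and 76.1% for Sec23b, 1.74% and 42.7% for Sec24d, 35.4% and 6.89% for Copg2, 20.4% and 40.8% for Kdelr2, 32.8% and 73.8% for Rab1 and 14.0% and 23.7% for Tmed2. GCCACGT was in 22.7% of the members' windows of 250 bases. Leaving out single libraries, members called ranged from 13 to 17, 7 to 16, 2 to 4, 3 to 9, 30 to 37 and 44 to 46 over the 6 comparisons, other genes from 22 to 30, 15 to 20, 2 to 5, 3 to 6, 26 to 30 and 43 to 49, and the members' median from 0.42 to 0.52, -0.20 to -0.14, -0.03 to 0.04, 0.38 to 0.49, 0.93 to 1.02 and 1.61 to 1.72.

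With 2 libraries per stage, small folds lie near the threshold of 1.5, and p-values measure only the spread between these pairs. Depth limits Kdelr3 before expanded cells, Hid1 up to 10 h and Sec16b after naive cells, all at a few counts. Reads shared between paralogues were not resolved beyond the authors' counting.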
